A study of Mus musculus with 73 samples.

Results

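The voltage-gated calcium channel Cav1.3 carries the calcium current that triggers transmitter release from inner hair cells. Its 6 genes described here were measured in 73 single cells from the mouse cochlea, and were taken by name from a table of 55291 gene rows, of which 27502 had a count. They are Cacna1d, which encodes the pore, Cacnb2 and Cacna2d2, which encode a β and an α2δ subunit, and Cabp1, Cabp2 and Cabp4, which encode calcium-binding proteins (CaBPs). All 6 had counts.

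Casz1, which encodes a transcription factor, was deleted in the hair cells of the mice studied. These were 14 days old and carried Atoh1Cre/+ and Casz1flox/flox together with Fgf8-Flpo/+. At Rosa26 they carried 2 reporters, the Cre-dependent CAG-Loxp-stop-Loxp-3xGFP (Ai47) and the Flp-dependent CAG-Frt-stop-Frt-tdTomato. Cells with both colours, labelled Casz1 -/- IHCs, were picked by hand. Deletion therefore followed Atoh1, a gene of developing hair cells, and selection followed Fgf8, a gene of inner hair cells (IHCs). No animal is named in the labels, and the 73 cells therefore count as 1 sample of 1 group, with no replicates and no p-value. Wild-type cells are not analysed here, and no value below says what the deletion changed.

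In a hair cell the pore protein sits at the ribbon synapse with a β subunit, which brings the channel to the membrane, and an α2δ subunit on the outer face. Calmodulin bound to the channel closes it as calcium enters. CaBPs resemble calmodulin, compete with it for the channel and keep the current open longer, which suits the lasting release that sound requires. Mutations of CACNA1D and CABP2 cause deafness in people.

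Total counts per cell ranged from 11027945 to 37183702 (median 17333640). Levels are in CPM, the counts of a gene scaled to the total of its cell. Detection required 10 CPM, equal to between 110 and 372 counts depending on the depth of the cell. Shares of cells carry exact 95% Clopper-Pearson intervals, which cover counting error over cells only. Of 10 general hair cell markers, 9 were detected in all 73 cells. Of 56 markers of other cochlear cell types, 47 were rare (found in under 10 cells). Summed over these, the level ran from 0 to 3914 CPM with a median of 33, and 24 cells had at least 1 of them at 50 CPM. That sum and that count of cells leave out the markers that were not rare. These were Nefl (70 cells), Snap25 (68), Ntrk2 (65), Nefm (64), Cnp (29), Sox10 (27), C1qb (22), Col1a1 (14) and Gjb6 (11).

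The pore gene Cacna1d and the calcium sensor gene Cabp2 were detected in every cell, Cacnb2 in most, and the other 3 genes in part of the cells. Of the 6 genes, 2 were detected in all 73 cells, against 2.27% of all genes with a count. Detection in 37 or more cells held for 4 of the 6, against 17.8% of genes with a count. A median of 4 of the 6 genes was detected per cell, 4 cells had all 6, and 2 cells had only 2.

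**Figure D1:**
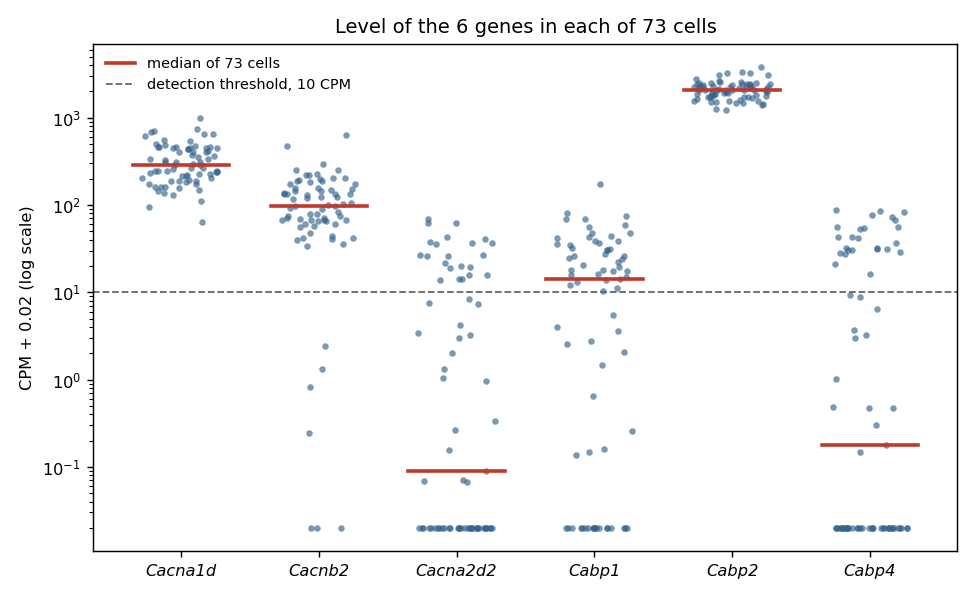
Level of each of the 6 genes in each of 73 cells, as CPM + 0.02 on a log axis, with 1 point per cell, a red bar at the median and a dashed line at the detection threshold of 10 CPM. Cabp2 forms a narrow band from 1232 to 3796 CPM and Cacna1d a wider one from 64.2 to 1001 CPM, while Cacna2d2, Cabp1 and Cabp4 run from cells with no count (33, 19 and 35 cells) to cells at 10 CPM or more (22, 42 and 25 cells), with the remaining cells between.

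On mm10, Cacna1d spans bases 30039939 to 30491455 of chromosome 14 (minus strand). Its lowest, median and highest levels were 64.2, 290 and 1001 CPM, all above the threshold (100%, interval 95.1 to 100). The highest cell thus stood 15.6-fold above the lowest. The coefficient of variation (SD divided by the mean, over cells) was 0.531, and 39.6% of the 962 genes with a mean between 167 and 668 CPM had a lower one. Its variation was therefore common for its level. Exons of Chdh on the opposite strand overlap those of Cacna1d, and 4.18% of the 50-base stretches of Cacna1d transcripts are shared with Chdh. Chdh had a median of 32.2 CPM, and no source used here says whether counting used strand.

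Among pore genes, Cacna1d stood almost alone. Of the 9 other pore genes, 6 were detected in 0 cells and 3 in few. Finding 0 of 73 cells still allows a share of up to 4.11% by the limit of 3 counts, or 4.93% by the exact interval. Cacna1g, a T-type channel gene, was detected in 3 cells with a maximum of 162 CPM, Cacna1a, the P/Q-type gene, in 2 cells, and Cacna1c, the L-type gene of heart muscle, in 1 cell. Cacna1f, the L-type gene of photoreceptors, did not reach 10 CPM in any cell. Counted per kb of exon, Cacna1d supplied a median of 100% of the pore gene total per cell, with a lowest value of 69.3%, and led in all 73 cells.

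The table of RefSeq promoters (GRCm38.p6, the same assembly as mm10) holds 9 windows for 5 of the 6 genes, each from 250 bases before to 50 bases after an annotated start. Counts here sum over all starts of a gene and do not tell which was used. The windows below are those of the genes found in every cell, Cacna1d and Cabp2, beside Cacna2d2, which was found in the fewest cells. Each is written 5′ to 3′ on the gene's strand, and capitals mark matches on either strand of these motifs: the E-box, spelled CAGCTG, the TATA box, spelled TATAAA, the CCAAT box, and the GC box, spelled GGGCGG. Other bases are in lower case.
Cacna1d, upstream start, chr14:30491107-30491406, minus strand: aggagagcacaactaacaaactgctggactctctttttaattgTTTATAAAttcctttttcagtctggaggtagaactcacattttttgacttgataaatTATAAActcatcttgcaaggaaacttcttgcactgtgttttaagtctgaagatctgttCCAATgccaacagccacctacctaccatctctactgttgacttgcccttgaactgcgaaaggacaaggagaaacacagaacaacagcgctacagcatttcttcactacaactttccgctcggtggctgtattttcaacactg
Cacna1d, downstream start, chr14:30353437-30353736, minus strand: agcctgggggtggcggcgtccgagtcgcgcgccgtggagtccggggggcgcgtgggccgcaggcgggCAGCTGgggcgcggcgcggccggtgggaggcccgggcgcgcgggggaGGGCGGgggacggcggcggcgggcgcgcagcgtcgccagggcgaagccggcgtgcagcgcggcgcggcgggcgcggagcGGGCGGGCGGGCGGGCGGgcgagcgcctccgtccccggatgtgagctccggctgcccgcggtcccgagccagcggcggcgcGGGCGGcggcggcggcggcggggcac
Cabp2, upstream start, chr19:4082238-4082537, plus strand: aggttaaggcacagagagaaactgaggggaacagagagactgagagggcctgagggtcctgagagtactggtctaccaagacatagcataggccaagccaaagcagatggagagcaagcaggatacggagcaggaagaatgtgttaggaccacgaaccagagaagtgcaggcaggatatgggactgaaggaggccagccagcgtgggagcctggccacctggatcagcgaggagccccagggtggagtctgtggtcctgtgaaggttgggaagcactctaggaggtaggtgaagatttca
Cabp2, downstream start, chr19:4083269-4083568, plus strand: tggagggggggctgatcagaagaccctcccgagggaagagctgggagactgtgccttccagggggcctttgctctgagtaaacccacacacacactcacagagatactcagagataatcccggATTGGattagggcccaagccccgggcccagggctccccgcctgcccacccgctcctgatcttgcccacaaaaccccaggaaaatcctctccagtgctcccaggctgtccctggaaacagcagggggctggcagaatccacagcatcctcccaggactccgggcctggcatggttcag
Cacna2d2, chr9:107399630-107399929, plus strand: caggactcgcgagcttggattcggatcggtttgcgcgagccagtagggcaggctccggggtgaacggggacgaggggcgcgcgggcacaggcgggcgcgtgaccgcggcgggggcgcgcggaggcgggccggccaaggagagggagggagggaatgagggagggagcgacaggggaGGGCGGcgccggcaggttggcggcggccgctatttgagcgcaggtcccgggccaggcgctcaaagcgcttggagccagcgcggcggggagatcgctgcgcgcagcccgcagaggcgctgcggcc

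The windows of the 2 genes found in every cell differ in most marked motifs, and the upstream windows of both hold 4 CpG pairs. The upstream Cacna1d window holds 3 TATA boxes, of which 2 overlap, and 4 CpG pairs. The downstream one holds 63 CpG pairs, 6 GC boxes and 1 E-box. The Cabp2 windows hold 4 and 6 CpG pairs, against a median of 7 over all 32851 windows, and the downstream one has 1 CCAAT box. The Cacna2d2 window, of the gene found in the fewest cells, holds 43 CpG pairs and 1 GC box. Of all windows, 16.3% hold the E-box, 13.6% the TATA box, 37.4% the CCAAT box and 35.7% the GC box. Such matches describe the letters only.

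Cacnb2, whose product is the main β subunit known in IHCs, was detected in 66 of 73 cells (90.4%, interval 81.2 to 96.1). The gene spans bases 14603088 to 14987908 of chromosome 2 (plus strand). Its lowest, median and highest levels were 0, 97.3 and 639 CPM. Detection was usual for its level: genes with a mean between 59.6 and 239 CPM were detected in a median of 62 cells, and 32% in more cells than Cacnb2. Of its 50-base stretches, 5.90% are shared with other genes, among them the antisense gene Gm13269, which was detected in 35 cells.

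Other β subunit genes were found beside Cacnb2. Cacnb3 was detected in 28 cells (38.4%, interval 27.2 to 50.5) with a maximum of 201 CPM, Cacnb4 in 18 cells (24.7%, interval 15.3 to 36.1) with a maximum of 133 CPM, and Cacnb1, the skeletal muscle form, in 1 cell. Per kb of exon, Cacnb2 led in 47 of the 68 cells with a detected β gene, Cacnb3 in 17 and Cacnb4 in 4. These counts depend on the length: with the longest transcript Cacnb2 led in 52, Cacnb3 in 14 and Cacnb4 in 2, and with no length correction in 58, 7 and 3. More than 1 β gene was detected in 35 cells, 25 with 2 and 10 with 3. Of the 7 cells without Cacnb2, library 31 had Cacnb3 at 201 CPM and library 37 had Cacnb4 at 81.3 CPM. The remaining 5 had no β gene at 10 CPM, although Cacna1d in them ran from 64.2 to 652 CPM, and each held some β count below the threshold. Library 28 had the lowest Cacna1d level of all cells and no Cacnb2 count.

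Cacna2d2 was found in the fewest cells of the 6 genes, and its relatives were sparse too. It occupies bases 107399612 to 107529343 of chromosome 9 (plus strand), where its exons overlap Gm17141 on the opposite strand by 82 bases. Of its 50-base stretches, 0.489% occur in transcripts of other genes. Its lowest, median and highest levels were 0, 0.0689 and 68.9 CPM. It was detected in 22 cells (30.1%, interval 19.9 to 42), had no count in 33, and reached 50 CPM in 3. With a mean of 9.93 CPM it just missed the minimum mean of 10 CPM set for comparing genes. Genes with a mean between 4.96 and 19.9 CPM were detected in a median of 14 cells, and 13.7% of them in more cells than Cacna2d2.

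Cacna2d4, an α2δ gene known from photoreceptors, was detected about as often, in 23 cells (31.5%, interval 21.1 to 43.4) with a maximum of 285 CPM. Cacna2d3 was found in 6 cells and Cacna2d1 in 0. Of the α2δ genes, 1 was detected in 29 cells, 2 in 11 and none in 33. In 14 cells there was no count of any of the 4 genes. Cacna2d2 and Cacna2d4 were together in 7 cells, Cacna2d2 without Cacna2d4 in 15 and Cacna2d4 without Cacna2d2 in 16. Among the 40 cells with an α2δ gene, Cacna2d2 led in 19, Cacna2d4 in 17 and Cacna2d3 in 4, per kb of exon.

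**Figure D2:**
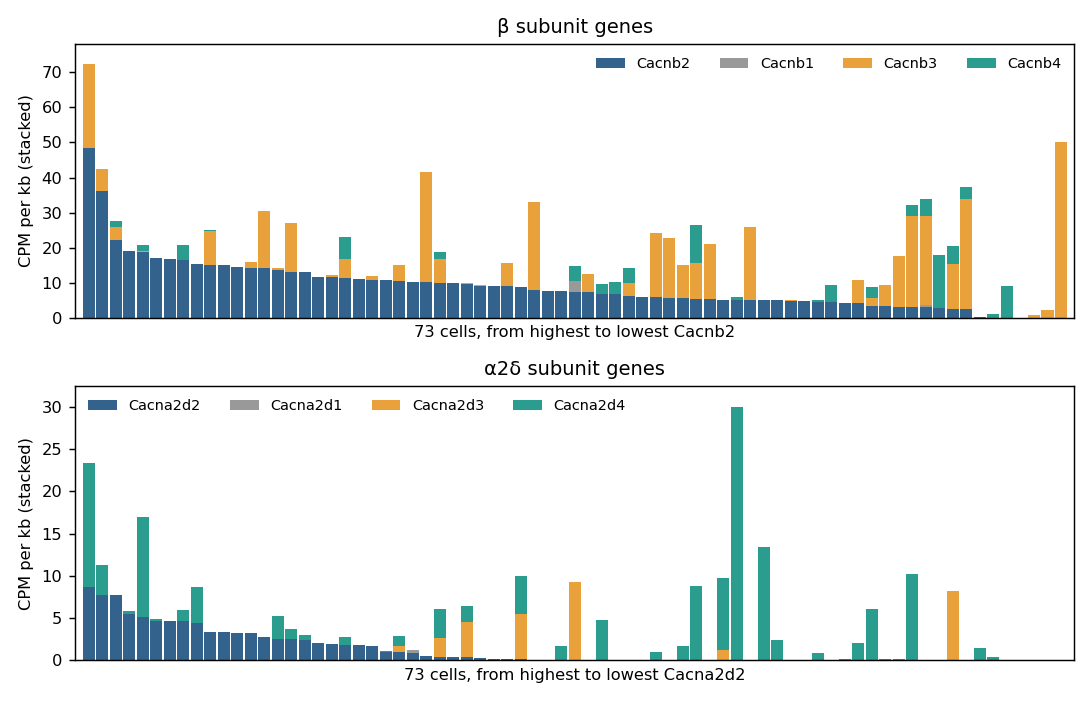
Summed level of β genes (top) and α2δ genes (bottom) in each of 73 cells, in CPM per kb of exon, 1 stacked bar per cell, ordered by Cacnb2 and by Cacna2d2. Cacnb2 is the largest part in 47 cells with other β genes on top of it, while α2δ bars are missing or near 0 in many cells and are split between Cacna2d2 and Cacna2d4.

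Cabp2 was the most abundant and most even of the 6 genes. It spans bases 4081578 to 4087340 of chromosome 19 (plus strand), and 0 of its 50-base stretches occur in other genes' transcripts. Its lowest, median and highest levels were 1232, 2060 and 3796 CPM, a 3.08-fold range. For comparison, Otof, the calcium sensor of vesicle release, ran from 947 to 6440 CPM, a 6.80-fold range. The coefficient of variation of Cabp2 was 0.238. Among the 59 other genes with a mean between 1058 and 4231 CPM the median was 0.339, and 3 genes (5.08%) had a lower value. Of those 59 genes, 94.9% were likewise detected in all cells, so detection in every cell was usual at this level, while a spread as small was seen in few genes.

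Cabp1 and Cabp4 were present in part of the cells. Cabp1, whose transcripts also encode the neuronal protein caldendrin, spans bases 115168689 to 115194381 of chromosome 5 (minus strand). Its lowest, median and highest levels were 0, 14 and 172 CPM. It was detected in 42 cells (57.5%, interval 45.4 to 69) and had no count in 19. Cabp4, known from photoreceptor synapses, spans bases 4135423 to 4144033 of chromosome 19 (minus strand), the chromosome of Cabp2. Its lowest, median and highest levels were 0, 0.160 and 87.6 CPM, with detection in 25 cells (34.2%, interval 23.5 to 46.3) and no count in 35. Between these, 7 cells had Cabp1 and 7 had Cabp4 at 1 to 10 CPM. Exons of Gpr152, on the opposite strand, overlap Cabp4 by 91 bases, and Gpr152 itself was detected in 35 cells.

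Most genes of similar mean level were likewise detected in part of the cells, and in no more cells than Cabp1 or Cabp4. Of 4179 genes with a mean between 10.4 and 41.7 CPM, the median gene was detected in 26 cells and 6.22% were detected in more cells than Cabp1. For Cabp4, 35.6% of 4038 genes with a mean between 8.22 and 32.9 CPM were detected in more cells. Both genes were detected together in 16 cells, Cabp1 alone in 26, Cabp4 alone in 9 and neither in 22. All 22 of these cells still had Cabp2.

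Counted per kb of exon, Cabp2 made up nearly all of the CaBP transcripts. Its median share of the 6 CaBP genes was 99.3% per cell, with a lowest value of 94.5%, and it led in all 73 cells. Cabp7, a CaBP of the Golgi, was detected in 32 cells (43.8%, interval 32.2 to 55.9) with a maximum of 231 CPM. Cabp5, known from the retina, had no count in any cell, and Caln1, also called Cabp8, was detected in 1. Calmodulin itself, which the CaBPs compete with, was represented by Calm2 and Calm3, both detected in all 73 cells, with medians of 16403 and 246 CPM. Per kb the means were 10712 and 104 CPM, against 1567 CPM for Cabp2. Both genes have near-identical copies in the genome, so their counts are uncertain.

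**Figure D3:**
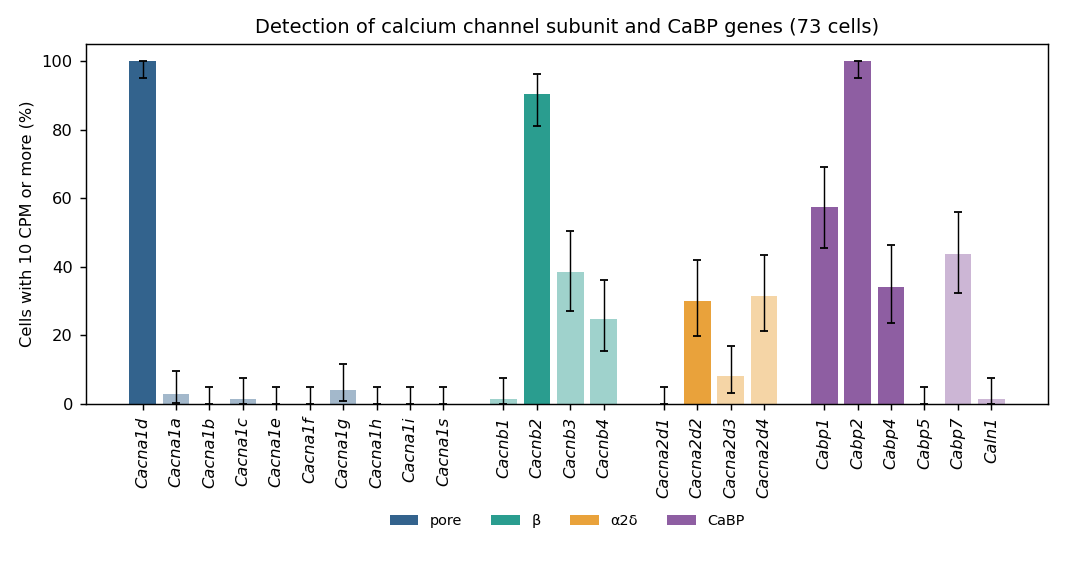
Share of the 73 cells, in percent, with 10 CPM or more of each pore, β, α2δ and CaBP gene, with full colour for the 6 genes described, pale colour for their relatives, and bars for exact 95% Clopper-Pearson intervals over cells. Cacna1d and Cabp2 stand at 100% and Cacnb2 at 90.4%, while no α2δ gene exceeds 31.5%.

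Per kb of exon, the mean levels over cells were 1567 CPM for Cabp2, 26.5 for Cacna1d, 9.02 for Cacnb2, 4.67 for Cabp4, 3.57 for Cabp1 and 1.25 for Cacna2d2. Cabp2 was above Cacna1d in all 73 cells and Cacna1d above Cacnb2 in 69. Cabp4 (SD 7.15) and Cabp1 (SD 4.73) did not differ beyond their spread: Cabp4 was the higher in 27 cells and Cabp1 in 34. The levels of Cacnb2 and of the sparse CaBP genes depend on the length used. With the longest transcript in place of all exons its mean was 23.7 CPM per kb against 34.6 for Cacna1d, which was then the higher in 50 cells, and Cabp1 (5.32) stood above Cabp4 (4.88).

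Gamma subunits were nearly absent, with 7 of 8 genes detected in 0 cells and Cacng5 in 6. Of 7 RGK and Stac genes, which inhibit L-type channels or assist their opening and trafficking, Rem2 was detected in 43 cells (58.9%, interval 46.8 to 70.3; median 24.8 CPM) and Rem1 in 30, and the other 5 in 2 to 6 cells. Against 17.8% of genes of any level with a count, 10 of 12 channel tethers and partners were detected in 37 or more cells. Among them Rims2 (61 cells) and Rimbp2 (49 cells) encode active zone proteins that bind the channel, and Ush1c (73 cells) encodes harmonin, which is known to regulate Cav1.3. Kcnma1, the potassium channel gene that responds to the calcium influx, was detected in 70 cells. Rims1 was detected in 1 cell and Bsn in 16.

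As with nearly all gene pairs here, no pair of the 6 genes rose and fell closely together over the cells. Spearman's rho was computed over the 73 cells, which share 1 source and differ in depth, and it is a description with no p-value. The 15 pairs ranged from -0.21 (Cacna1d with Cabp1) to 0.17 (Cabp1 with Cabp4), and 0 reached 0.5 in size. Cacna2d2 was left out of the comparison with other genes, and for the remaining 5 genes the median over 10 pairs was -0.03. Over all pairs of the 8619 genes whose mean reached 10 CPM the median was 0.00, with quartiles of -0.08 and 0.09, and 0.0446% of pairs reached 0.5 in size. Cacna1d and Cacnb2, pore and β subunit, stood at 0.11, and Cacna1d and Cacna2d2 at 0.03. None of these pairs is called a relation.

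**Figure D4:**
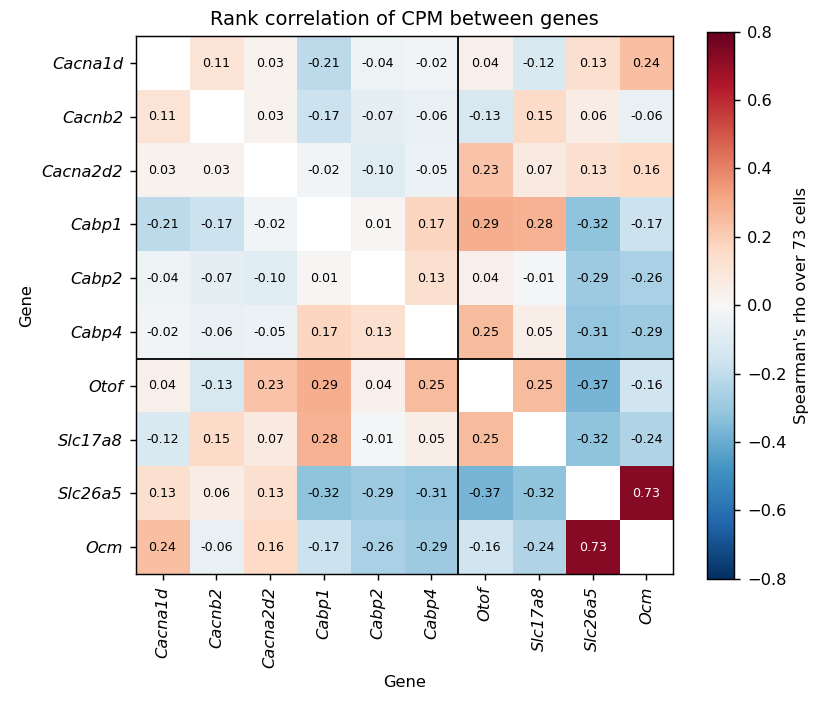
Spearman's rho of CPM over 73 cells between the 6 genes and 4 reference genes, with black lines dividing the 2 sets. Within the block of the 6 genes all values lie between -0.21 and 0.17, while Slc26a5 and Ocm stand at 0.73.

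As with most genes, none of the 6 reached a rho of 0.5 in size with Otof or Slc26a5. Slc26a5 is the gene of the outer hair cell motor prestin. Over 8618 genes, 1.35% reached 0.5 with Slc26a5 and 0.87% reached -0.5. With Otof the shares were 0.0928% and 0.209%. The 2 reference genes stood at -0.37 with each other. Cacna1d (0.13), Cacnb2 (0.06) and Cacna2d2 (0.13) had small positive values with Slc26a5, with the median over all genes at -0.03. The 3 CaBP genes were lower, Cabp1 at -0.32, Cabp4 at -0.31 and Cabp2 at -0.29, and 5.77%, 6.28% and 7.96% of genes were at or below these values. With Otof, Cabp1 stood at 0.29, Cabp4 at 0.25, Cacna2d2 at 0.23, Cacna1d and Cabp2 at 0.04 and Cacnb2 at -0.13. Of genes, 4.84% were at or above Cabp1 and 8.30% at or above Cabp4.

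**Figure D5:**
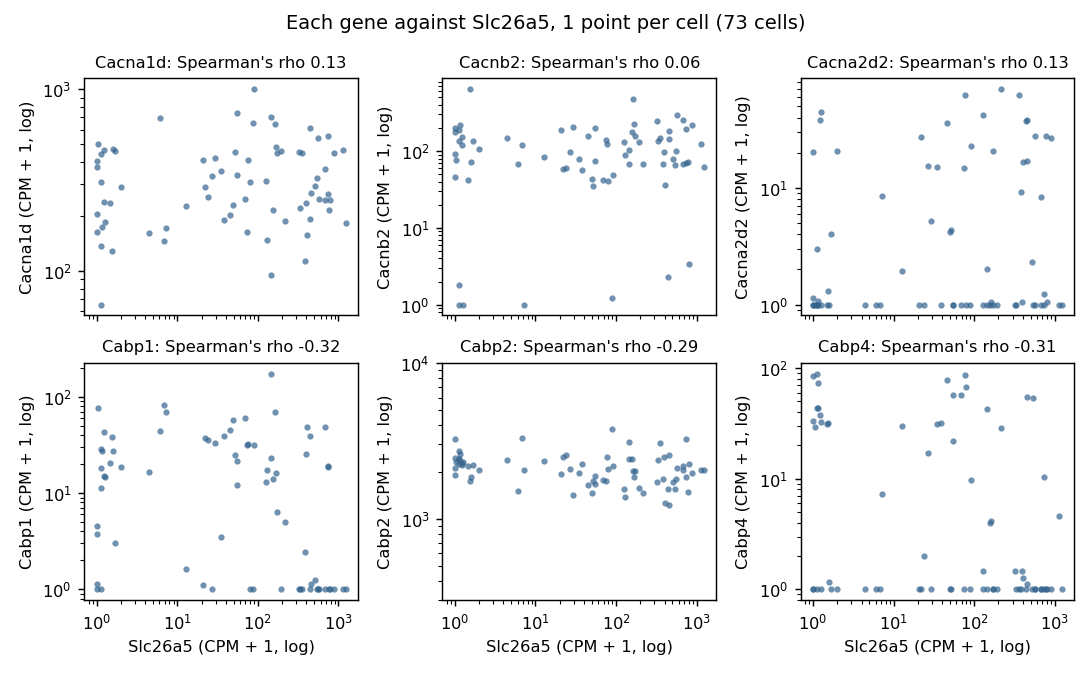
Level of each of the 6 genes against Slc26a5 in 73 cells, both as CPM + 1 on log axes with a separate vertical range per panel and 1 point per cell. Cabp1 and Cabp4 hold many cells with no count at high Slc26a5 and also some detected cells there, with rho of -0.32 and -0.31, and Cabp2 stays within 1232 to 3796 CPM across the range.

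Library properties moved with some of these values. The ribosomal protein share of counts had rho of 0.65 for Slc26a5 and -0.52 for Otof, the largest in size for both genes among the properties compared, and of -0.32 for Cabp1 and for Cabp4, and -0.24 for Cabp2. No value was corrected for it. With the mitochondrial share of counts, rho was -0.49 for Slc26a5, 0.47 for Otof, 0.27 for Cabp1, 0.19 for Cabp4 and 0.00 for Cabp2. With the number of genes that had a count, it was -0.30 for Slc26a5, 0.44 for Otof and 0.40 for Cabp4. Corrected for the mitochondrial share, Cabp1 and Slc26a5 stood at -0.22, and corrected for the number of genes, Cabp4 and Otof stood at 0.09 in place of 0.25. The value of Cabp2 with Slc26a5 was -0.09 with scran size factors and -0.17 over the 49 cells that had no rare marker at 50 CPM. Over the same 49 cells Cacna2d2 stood at 0.29 with Slc26a5 and Cacna1d at 0.20, while Cabp1 stood at -0.35 and Cabp4 at -0.36, and Cacna2d2 with Otof was 0.13. Summed neuron markers, of which 4 of 10 were detected in 37 or more cells and 3 in none, ran from 100 to 1629 CPM and stood at 0.37 with Slc26a5 and -0.32 with Cabp2. Summed glial markers stood at 0.53 with Slc26a5 and -0.36 with Cabp1. Of these 9 glial markers, 0 were detected in 37 or more cells, 3 (Mbp, Gfap and Pmp22) were detected in no cell, and their sum ran from 0 to 498 CPM. The part of these properties in the values was not tested further.

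Slc26a5 was detected in 51 of the 73 cells (69.9%). By detection, 26 of the 42 cells with Cabp1 also had Slc26a5 (61.9%, interval 45.6 to 76.4), as did 25 of the 31 cells without Cabp1 (80.6%). For Cabp4 these were 14 of 25 cells (56%, interval 34.9 to 75.6) and 37 of 48 (77.1%). For Cacna2d2 the order was the other way, with 18 of 22 cells (81.8%, interval 59.7 to 94.8) and 33 of 51 (64.7%). For Cacnb2 they were 48 of 66 cells (72.7%, interval 60.4 to 83) and 3 of 7 (42.9%). All these intervals include the 69.9% found over all cells, but those cells hold each subset, so the overlap tests nothing. These shares describe cells of 1 sample, and their differences were not tested. Cacna1d and Cabp2 were detected in every cell, so each cell with Slc26a5 necessarily had both.

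Relatives of the 6 genes were compared in the same way where their mean reached 10 CPM. With Slc26a5, Cacnb3 stood at -0.45, Cacna2d4 at -0.27 and Cacnb4 at -0.01, and Rem2 at 0.39. Calm2 stood at 0.37. Over all genes the median with Slc26a5 was -0.03 and 0.87% reached -0.5. The 11 channel tethers and partners had a median of -0.26 with Slc26a5, and 1 of them, Erc2 (-0.51), passed -0.5. Rimbp2 had the highest value of this list with Otof, at 0.41. Among pairs between the 6 genes and the listed relatives or partners, Cabp1 stood at 0.43 with Cib2, which also served as a general hair cell marker. Cabp4 stood at 0.34 with Cacna2d4, both genes known from photoreceptors.

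Genes whose levels ran most like those of Cabp1 were Ak1, an adenylate kinase (0.55), Calb2, the calcium buffer calretinin (0.53), Bin1 (0.52), Bcl2, an inhibitor of apoptosis (0.50, rounded here and for the next), and Kncn (0.50). At the other end were Rnd2 (-0.53), Gpx2, a glutathione peroxidase (-0.53), and Litaf (-0.51). In all, 4 of 8618 genes reached 0.5 and 4 reached -0.5 with Cabp1 (0.0464% each). The 5 highest genes had rho of -0.34 to -0.58 with Slc26a5 and the 3 lowest 0.56 to 0.61. Cabp1 itself stood at -0.32 there.

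The other genes had few close followers. For Cabp4, 1 gene of 8618 (0.0116%) reached 0.5, Eef1akmt1 (0.52), followed by Mtm1, Zfpm1, Ano4 and Chd3 (0.44 to 0.48), and Elf3 (-0.45) was lowest, ahead of Dynlt1b and Acbd7 (both -0.43). Cabp2 had none past 0.5 in size. Its highest were Alkbh6 (0.48), Camk2b, a calmodulin-dependent kinase (0.47), Kdm1b, Glrx3 and Apba1 (0.41), and its lowest Atp8a1 (-0.42), Rpl19 and Decr1 (both -0.41). Cacna1d also had none, with C1qtnf4 and Zfpl1 highest (both 0.42), then Eif3g, Srpk1 and Myo3b (0.39), and Trnau1ap (-0.42), Supt5 and Tlcd2 (both -0.40) lowest. For Cacnb2, again with none, Atp5pb (0.42), Cdk17, Atf3, Psmc6 and Cntnap2 (0.38) were highest, and Ctbp1 (-0.48), Ptpn21 and Tpst2 (both -0.46) lowest.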

How the data were processed

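Single-cell RNA was measured in 73 cells of 1 group. The table that the authors deposited holds raw counts. Full-length cDNA came from a Smart-Seq HT kit, per the labels' protocols. Without molecular identifiers, PCR copies are counted too, and intervals cover counting error only. Tools named in the submitters' processing notes are featureCounts 2.0.1, HISAT2 2.2.1 and StringTie 2.2.1, with mm10 as the build. Their roles and settings, the annotation and any use of strand are not given in the sources used here. A reporter row, WPRE (0.0161% of counts), was left out of totals. No 2 libraries agreed within sampling noise (lowest chi-square per gene 468 over 2628 pairs).

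Counts were divided by library totals (11027945 to 37183702) to give CPM. Detection meant 10 CPM. Genes whose mean reached 10 CPM (8619) were compared by Spearman's rho over cells, called at 0.5 in size. No test between groups was possible with 1 group. Each gene was also set beside the genes of a band around its mean, whose limits the report gives. Exon lengths, positions and overlaps come from GENCODE vM21 on mm10, and promoter windows from RefSeq. Cells with a rare marker were those in which 1 of 47 markers, each detected in fewer than 10 cells, reached 50 CPM. The correlation step was tested on simulated data, which lacked the many cells with no count seen for Cacna2d2, Cabp1 and Cabp4. Named genes are the 6 genes, the fixed lists, and the 5 highest and 3 lowest genes by rho per gene, without clone names. Of the lists, 1 gene is not reported here. Genes and lists were chosen with earlier results of these data known, and level bands, cell orders and shares with Slc26a5 were added after the values were seen. Alternatives are given in the closing section. Size factors came from scran 1.30.0 in R 4.3.3, and all else from Python 3.11.15 with scipy 1.17.1, pandas 2.3.3, numpy 2.4.6 and matplotlib 3.10.9.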

Additional observations from a re-analysis of the deposited data

How the results depend on the processing

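All 243 alternative values of rho (27 pairs under 9 settings) stayed below 0.5 in size, a coarse check that leaves room for change. Cabp2 with Slc26a5 ran from -0.33 to -0.09 and Cabp4 with Otof from 0.09 to 0.27. The settings were Pearson's r with pseudocounts of 1 and 10, corrections for mitochondrial share, total counts, genes with a count and immediate early and stress genes, scran size factors, thinning to 11027945 counts, and leaving out cells with a rare marker. The median over pairs of members ran from -0.03 to 0.01. At a call of 0.4, and with genes of a mean of 1 CPM or more added, 0 of the 6 genes were called with Otof or Slc26a5. With 73 cells, small values of rho have a sign that depends on the setting: Cacna1d with Cabp2 ran from -0.12 to 0.06.

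Shares of cells depended on the threshold. At 50 CPM they were 79.5% for Cacnb2, 4.11% for Cacna2d2, 9.59% for Cabp1 and 13.7% for Cabp4. With any count they were 54.8% for Cacna2d2, 74% for Cabp1 and 52.1% for Cabp4, and at 1 CPM 43.8% for Cacna2d2. Of the other subunits and regulators, 9 in place of 14 were detected in 37 or more cells at 50 CPM. The count of genes at 0.5 or more in size with Slc26a5 was 191, against 69 corrected for mitochondrial share and 469 at a call of 0.4. With Otof it was 26, against 16 and 14 with Pearson's r (pseudocounts 1 and 10), 2 corrected for mitochondrial share, 14 for total counts, 15 for genes with a count, 16 with scran size factors, 73 without cells with a rare marker and 181 at a call of 0.4. A call of 0.4 adds genes by definition, while the cause of the other changes was not tested. No paired analysis was possible because the cells form 1 group.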

Other observations

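Casz1, the gene targeted in these mice, was among the genes that ran most against Cacnb2. It was looked at after its place in the ranking was seen. Casz1 reads had a median of 42.1 CPM and were detected in 55 cells, and no source used here says which exons the deletion takes out. The rho of Casz1 with Cacnb2 over the 73 cells was -0.44, the fourth lowest of 8618 genes. It was -0.43 corrected for mitochondrial share, -0.44 for total counts, -0.43 for genes with a count and -0.35 without the cells with a rare marker. Some genes must stand at the low end of any such ranking, and 0 of 8618 reached -0.5 with Cacnb2. Because Casz1 was picked for its rank, the rank and these repeats on the same cells test no link with Cacnb2. Casz1 stood at 0.10 with Cacna1d, 0.10 with Cabp1, 0.04 with Cabp2 and 0.12 with Cabp4. All these values are below the size of 0.5 used for a call.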
